A study of Mus musculus with 6 samples.

Results

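Fatty acid oxidation was examined in the mammary gland through 33 genes, chosen by name from the carnitine shuttle, the acyl-CoA dehydrogenases, the later steps of the mitochondrial pathway, electron transfer, and the peroxisomal enzymes. They are 33 of the 21950 genes in the deposited expression table, and all 33 had a row. RNA was sequenced from mammary tissue of FVB/NJ mice at lactation day 2, postnatal week 11, and the study compared MMTV-FOXC1 transgenic mice with wildtype mice. The transgenic mice carried a Myc-tagged FOXC1 transgene under the mouse mammary tumor virus promoter, which drives expression mainly in luminal epithelial cells. The wildtype mice had the same FVB/NJ background and no transgene. The labels call the material epithelial cells, whereas by the study's methods RNA was extracted from tissue slides. They give 3 samples of each genotype, and neither the founder line nor whether each sample came from its own animal is given in the sources used here.

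Fatty acids are burned in the mitochondrion after activation to acyl-CoA and transfer across its membranes as carnitine esters. Each turn of the spiral then removes acetyl-CoA by oxidation, hydration, a further oxidation and thiolysis, and passes electrons to the respiratory chain through the electron transfer flavoprotein. Peroxisomes shorten very long and branched chains by a parallel set of enzymes. The lactating gland is a tissue of fatty acid synthesis, since alveolar cells make milk fat, while its adipocytes store lipid and release it.

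Each of the 6 columns held RPKM, reads scaled to gene length and library depth. From these the depth was worked out, and with it the number of reads behind each value. Depth was 3492861 to 3496335 reads per wildtype column and 11770867 to 11775866 reads per transgenic column. The columns of a genotype differed by about as much as random draws from 1 library would, with a chi-square per degree of freedom of 1.02 over 5835 genes in wildtype and 1.05 over 7490 genes in transgenic columns. Each genotype was therefore counted as 1 library (n = 1), no p-value is given, and intervals are 95% intervals for counting error only, which do not cover differences between animals. The mouse Foxc1 row was at 2.53, 1.66 and 2.90 RPKM in the wildtype and at 9.45, 9.56 and 8.21 RPKM in the transgenic columns. On the relative scale described in the next paragraph, its log2 change was 0.50. The transgene is a human FOXC1 cDNA, and whether its reads were counted in that row is not given in the sources used here.

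The scale of the comparison needed care, because reads of 8 milk protein genes made up 42.3% of the wildtype library and 0.232% of the transgenic one. On the deposited RPKM the median gene was higher by 1.06 on the log2 scale in transgenic mice. Changes are therefore given on a relative scale, on which transgenic RPKM were divided by 2.41, the median ratio over 12993 genes, and the median of all genes was 0.0085. A log2 change is log2 of RPKM + 1 in transgenic over wildtype mice. A fold is the plain ratio of RPKM on the relative scale, with its counting interval. A gene was called higher or lower where its log2 change passed 2. The number 2 is taken from the study, whose log2 fold changes came from DESeq2 and not from RPKM + 1. The 1 RPKM added shrinks the change of genes at low RPKM, so a plain fold above 4 can go uncalled. The same calls on the deposited values are named the library-size scale.

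All 33 genes passed the filter, an average of 2 RPKM or more in 1 genotype or both, as did 13118 of all genes. Acadl (2.33), Cpt1a (2.22) and Etfb (2.05) had log2 changes past 2 and were called higher in transgenic mice, against 2.79% of all 13118 genes. Cpt1b (6.25-fold, log2 change 1.84) and Acaa1b (6.66-fold, 1.62) had plain folds above 4 but were not called. With 0.1 in place of 1 RPKM added, 5 of the 33 were called higher, against 8.71% of all genes. None of the 33 was called lower, against 3.13% of all genes. At a log2 change past 1, 12 of the 33 were higher and 2 were lower, against 14.4% and 13.2% of all genes. By sign alone 26 were higher and 7 lower, against 50.4% and 49.6%. The median log2 change of the 33 was 0.44.

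On the library-size scale 14 of the 33 were called higher and 0 lower, against 16.1% and 1.23% of all genes, and their median was 1.60. Of the 7 genes lower on the relative scale, 6 were higher on the library-size scale. These were Acad9, Acad10, Echs1, Decr2, Etfdh and Crot, whereas Ehhadh was lower on both. On the deposited RPKM the columns of the genotypes did not overlap for any of the 33 genes, as for 93.3% of all genes. In bulk tissue, fewer cells of a type and less RNA per cell cannot be told apart, and this holds for each value that follows.

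**Figure D1:**
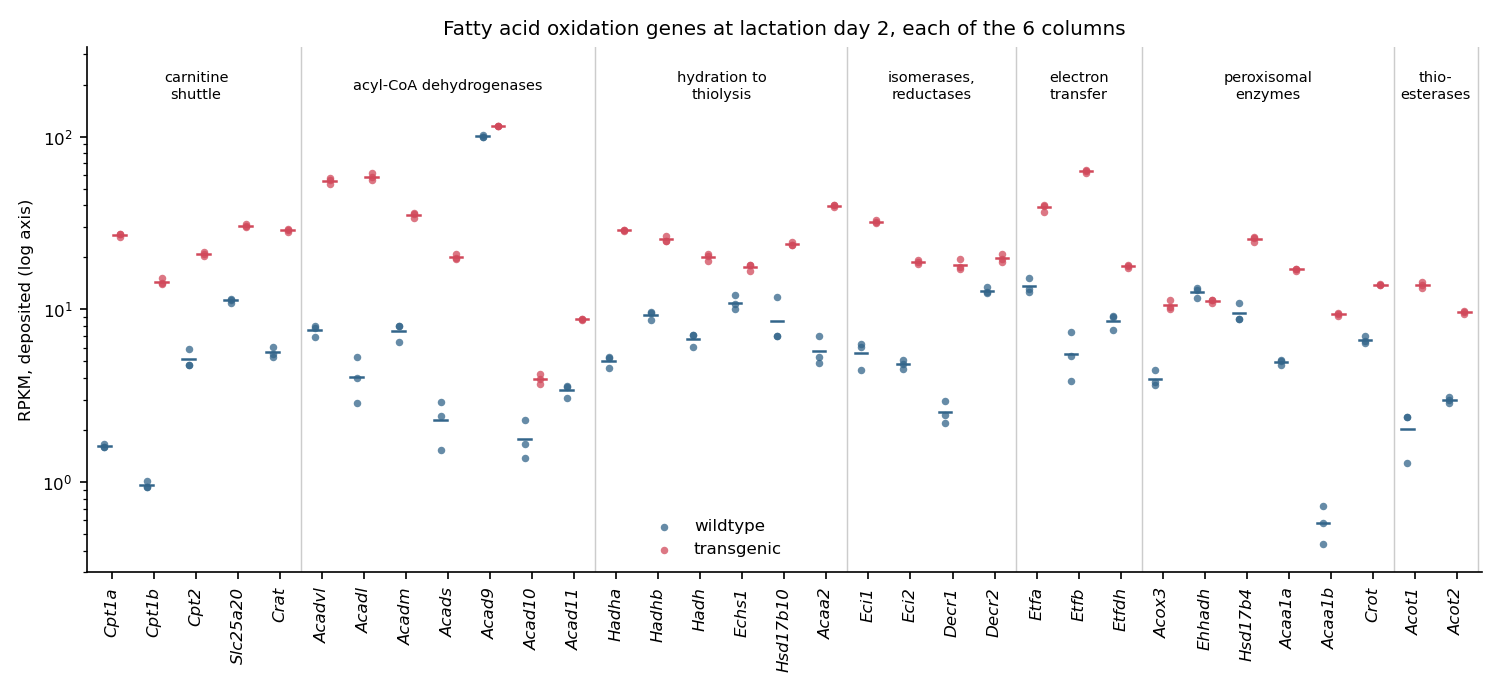
Deposited RPKM (log axis) of the 33 fatty acid oxidation genes, grouped by role, with 1 point per column and a bar at the mean of the 3 columns of each genotype. The lowest wildtype level is that of Acaa1b (0.583 RPKM) and the highest that of Acad9 (100.3 RPKM), and the widest distances between the genotypes include that of Cpt1a (1.62 to 26.9 RPKM).

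The log2 changes of the 33 genes ran from -1.27 for Ehhadh to 2.33 for Acadl. The interval of the ratio lay above 0 on the log2 scale for 23 genes, below 0 for 6 and across 0 for 4 (Acad10, Acad11, Hsd17b10 and Hsd17b4). Of all 13118 genes, 40.7% had an interval above 0, 40.7% one below 0, and 81.5% one or the other, so a separated interval alone does not set these genes apart. Among all genes past the RPKM filter, 9 of the 33 ranked at the 90th percentile or above, namely Acadl, Cpt1a, Etfb, Cpt1b, Acaa1b, Acads, Acadvl, Acaa2 and Decr1. Recovered reads per gene ran from 12 to 8492 in the wildtype library and from 648 to 32812 in the transgenic library. For 10 of the 33 there were fewer than 100 wildtype reads, so the wildtype level limits the precision of each change.

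**Figure D2:**
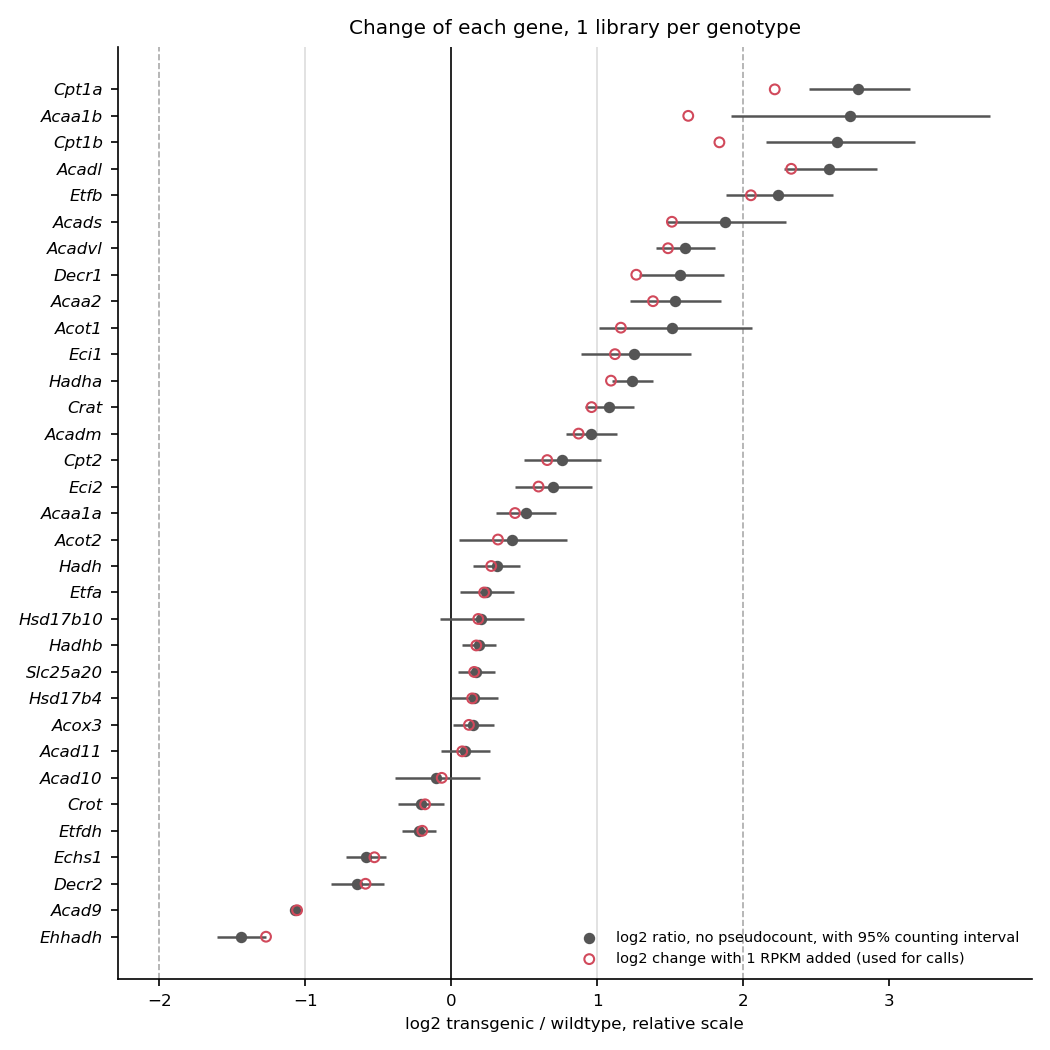
Log2 ratio of transgenic to wildtype RPKM on the relative scale for each of the 33 genes (filled points, no pseudocount, with the 95% counting interval) and log2 change with 1 RPKM added (open points, used for calls). Dashed lines mark 2 and -2, past which a gene was called; 3 open points lie past 2 and none past -2, and the pseudocount moves Acaa1b, with 12 wildtype reads, the most (2.73 to 1.62).

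Promoters are shown for the 3 genes called higher, for Ehhadh and Echs1 as genes lower on the relative scale, and for Hadha and Hadhb, whose subunits form 1 enzyme. RefSeq (GRCm38.p6) gave a promoter, 250 bases before to 50 bases after the start site, for 27 of the 33 genes. The coordinates are chr19:3323051-3323350 (plus strand) for Cpt1a, chr1:66863260-66863559 (minus strand) for Acadl and chr7:43443822-43444121 (plus strand) for Etfb. Those of Ehhadh are chr16:21787785-21788084 (minus strand) and those of Echs1 chr7:140116372-140116671 (minus strand). Hadha and Hadhb are transcribed away from each other from start sites 273 bases apart, and the window that lies in both of their promoters is chr5:30155003-30155230, printed on the plus strand. Capitals mark matches, on either strand, to the motifs described after the sequences.
Cpt1a: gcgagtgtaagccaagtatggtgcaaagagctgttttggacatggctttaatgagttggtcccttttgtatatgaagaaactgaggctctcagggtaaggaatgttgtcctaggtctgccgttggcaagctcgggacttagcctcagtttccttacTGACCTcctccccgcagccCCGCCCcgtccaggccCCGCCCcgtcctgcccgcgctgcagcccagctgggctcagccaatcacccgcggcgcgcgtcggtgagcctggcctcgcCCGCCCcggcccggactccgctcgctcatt
Acadl: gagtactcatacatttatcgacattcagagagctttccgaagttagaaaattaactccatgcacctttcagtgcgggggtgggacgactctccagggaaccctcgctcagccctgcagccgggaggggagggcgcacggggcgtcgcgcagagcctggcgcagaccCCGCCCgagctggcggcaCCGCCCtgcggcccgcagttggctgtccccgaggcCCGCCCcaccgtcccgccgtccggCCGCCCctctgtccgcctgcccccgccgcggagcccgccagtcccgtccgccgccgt
Etfb: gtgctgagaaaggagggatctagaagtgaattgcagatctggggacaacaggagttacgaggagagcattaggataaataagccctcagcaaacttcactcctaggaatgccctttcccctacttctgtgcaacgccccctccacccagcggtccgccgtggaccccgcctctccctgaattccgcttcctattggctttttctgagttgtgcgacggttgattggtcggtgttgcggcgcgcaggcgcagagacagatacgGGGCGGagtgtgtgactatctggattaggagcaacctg
Ehhadh: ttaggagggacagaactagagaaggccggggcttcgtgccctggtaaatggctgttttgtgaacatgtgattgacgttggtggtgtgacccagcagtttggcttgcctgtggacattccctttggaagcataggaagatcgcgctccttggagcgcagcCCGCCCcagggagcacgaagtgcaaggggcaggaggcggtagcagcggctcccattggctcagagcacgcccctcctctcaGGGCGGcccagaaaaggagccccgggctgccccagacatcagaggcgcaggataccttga
Echs1: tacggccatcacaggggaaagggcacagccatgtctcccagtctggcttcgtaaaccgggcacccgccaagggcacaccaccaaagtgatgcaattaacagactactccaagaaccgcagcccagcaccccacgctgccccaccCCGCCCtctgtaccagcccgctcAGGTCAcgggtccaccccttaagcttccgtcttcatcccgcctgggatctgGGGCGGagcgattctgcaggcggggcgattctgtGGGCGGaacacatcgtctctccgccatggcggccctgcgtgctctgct
Hadha and Hadhb: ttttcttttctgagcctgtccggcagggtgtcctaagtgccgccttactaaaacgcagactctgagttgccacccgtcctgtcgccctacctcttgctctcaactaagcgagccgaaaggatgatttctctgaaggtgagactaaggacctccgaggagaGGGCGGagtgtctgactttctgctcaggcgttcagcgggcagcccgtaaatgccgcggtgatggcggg

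The motifs were searched on both strands of 32851 mouse promoters of this length. Counts out of 27 are of genes, whereas shares of all are of promoter windows. AGGTCA, the hexamer bound by nuclear receptors, was in the promoters of Cpt1a, Acadvl, Acadm and Echs1, 4 of 27, and in 16.3% of all promoters. Of these 4 genes Cpt1a had a log2 change past 2, Acadvl one of 1.49, Acadm one of 0.87 and Echs1 one of -0.53. A direct repeat of that hexamer with 1 base between, the element of PPAR receptors, was in 0 of 27 and in 0.0396% of all promoters. TCAAGGTCA, the extended element of estrogen-related receptors, which contains the hexamer, was in 0 of 27 and 0.423% of all. The forkhead motif GTAAACA was in 0 of 27 and 3.65% of all.

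GCGCATGC, the core bound by nuclear respiratory factor 1, was in Acadm, Acad10, Etfa and Etfdh, 4 of 27, and in 2.71% of all promoters. In Acad10 and Etfdh its matches on the opposite strands overlap each other. CCGGAAG, an ETS motif, was in Cpt2, Slc25a20 and Crot, 3 of 27, and in 8.86% of all. GGGCGG, the GC box, was in 21 of 27, Acadl, Etfb, Ehhadh and Hadhb included, and in 35.7% of all. A match is a description of letters and no match says only that they are not in the window.

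Of the carnitine shuttle, 5 of 5 genes were higher, with a median log2 change of 0.96, and on the relative scale only Cpt1a was called. On the library-size scale, on which 87.7% of all genes were higher by sign and 16.1% were called higher, Cpt1a, Cpt1b and Crat were called. Cpt1a encodes the liver form of carnitine palmitoyltransferase 1, the outer membrane step that malonyl-CoA inhibits and that sets the pace of entry. Cpt1a (chr19:3322334-3385733, GRCm38) was at 1.60, 1.60 and 1.66 RPKM in the wildtype and at 27.4, 26.1 and 27.2 RPKM in the transgenic columns. It was 6.90-fold higher in transgenic mice on the relative scale (5.48 to 8.82), from 73 wildtype and 4089 transgenic reads. Cpt1b, the muscle form of the same enzyme, was at 1.02, 0.933 and 0.934 RPKM against 14.3, 13.96 and 15.2 RPKM. It was 6.25-fold higher (4.46 to 9.06), with a log2 change of 1.84, short of the threshold. However, the exons of Gm44502 overlap 81.4% of those of Cpt1b, so reads of the 2 genes cannot be told apart there.

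The steps behind Cpt1a differed less between the genotypes. Slc25a20, the carrier that exchanges acylcarnitine for carnitine across the inner membrane, was at 11.4, 11.5 and 10.9 RPKM against 30.1, 30.2 and 31.3 RPKM, a 1.13-fold difference (1.03 to 1.23). Cpt2, which turns acylcarnitine back to acyl-CoA, was at 5.87, 4.78 and 4.79 RPKM against 21.5, 20.5 and 20.96 RPKM, or 1.69-fold higher (1.41 to 2.04). Crat, which makes carnitine esters of acetyl and other short groups, was 2.12-fold higher (1.89 to 2.38). The balance within the shuttle therefore differed whatever the scale, since a ratio of 2 genes in the same library needs no scaling factor. The RPKM ratio of Cpt1a to Slc25a20 was 0.144 in wildtype and 0.881 in transgenic mice, a log2 difference of 2.62 (2.26 to 2.99). That of Cpt1a to Cpt2 was 0.315 against 1.28, a log2 difference of 2.03 (1.60 to 2.47). In each of the 19 pairs computed over the 33 genes, the gene with the larger change was placed first, so the direction of a difference is set by the pairing. The pairs were picked and do not cover all combinations, so the size of a difference also depends on which genes were paired. The ratio of Cpt1a to Cpt1b was 1.68 against 1.86, and its log2 difference of 0.14 had an interval that included 0 (-0.50 to 0.75).

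Acyl-CoA dehydrogenases take the first oxidation of the spiral, each on its own range of chain lengths. The 7 genes had a median log2 change of 0.87, with 5 higher and 2 lower. Acadl, the long-chain enzyme (chr1:66830839-66863277), was at 5.28, 3.99 and 2.86 RPKM in the wildtype and at 61.7, 58.5 and 55.8 RPKM in the transgenic columns. It was 6.02-fold higher (4.86 to 7.56), from 85 wildtype and 4155 transgenic reads, and none of its exonic bases or 50-base windows is shared with another gene. Acadvl, for very long chains, was at 6.91, 8.0 and 7.79 RPKM against 55.9, 53.0 and 57.2 RPKM, or 3.04-fold higher (2.64 to 3.51). Its exons overlap Dvl2 over 42.9% of their bases. Acads, for short chains, was at 1.53, 2.42 and 2.93 RPKM against 21.02, 19.7 and 19.9 RPKM, or 3.66-fold higher (2.79 to 4.90).

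Acadm, the medium-chain enzyme, was at 7.97, 6.50 and 8.05 RPKM against 36.2, 35.4 and 33.8 RPKM, or 1.94-fold higher (1.73 to 2.20). The less characterized Acad10 and Acad11 were near the median of all genes, with log2 changes of -0.06 and 0.08. Acad9 stood apart. Its protein is required to assemble respiratory complex I, and it was the most abundant transcript of the 33 in both genotypes. Acad9 was at 102, 99.6 and 99.6 RPKM in the wildtype and at 115, 115 and 115 RPKM in the transgenic columns, close on the deposited scale and 2.10-fold lower in transgenic mice on the relative scale. Of its 50-base windows, 14.6% also occur in transcripts of other genes.

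The makeup of the family hence differed between the libraries, a comparison that needs no scale. Acad9 gave 79.1% of the summed RPKM of the 7 dehydrogenases in wildtype and 38.7% in transgenic mice. Acadl gave 3.19% and 19.7%, Acadvl 5.96% and 18.6%, Acadm 5.92% and 11.8%, and Acads 1.80% and 6.80%. The RPKM ratio of Acadl to Acad9 was 0.0403 against 0.510, a log2 difference of 3.66 (3.35 to 3.99), the widest of the 19 pairs computed. This pair joins the genes with the highest and the lowest log2 change of the 7. Among the chain-length enzymes themselves, Acadl to Acadm differed by 1.63 (1.27 to 2.00) and Acadl to Acads by 0.72 (0.19 to 1.23).

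**Figure D3:**
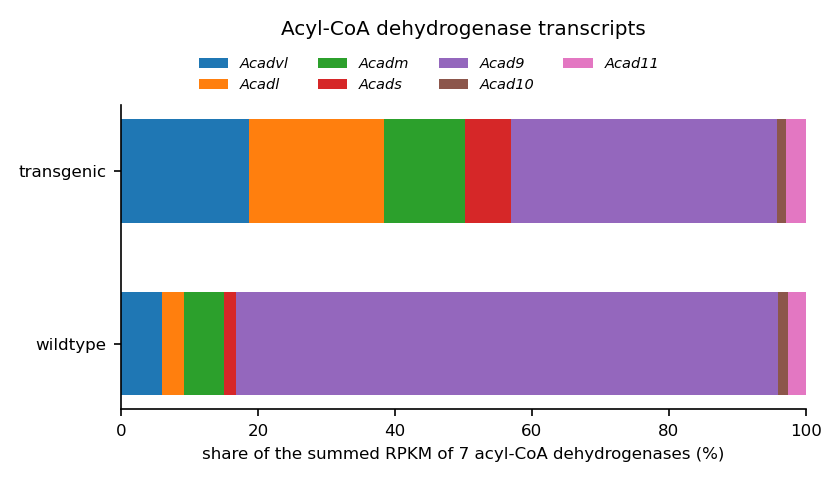
Share of the summed RPKM of 7 acyl-CoA dehydrogenases (percent) taken by each gene in the wildtype and transgenic library, from the mean of 3 columns. Acad9 takes 79.1% of the wildtype bar and 38.7% of the transgenic bar, and Acadl goes from 3.19% to 19.7%.

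The genes of hydration, the second oxidation and thiolysis had a median log2 change of 0.23 over 6 genes, with 5 higher, 1 lower and none called. Hadha and Hadhb encode the alpha and beta subunits of the mitochondrial trifunctional protein, which carries out these steps on long chains, and are divergently transcribed from the window printed before. Hadha was at 4.58, 5.21 and 5.32 RPKM in the wildtype and at 28.9, 28.7 and 28.4 RPKM in the transgenic columns, or 2.36-fold higher (2.15 to 2.60). Hadhb was at 9.67, 9.53 and 8.67 RPKM against 24.9, 24.97 and 26.7 RPKM, or 1.14-fold higher (1.05 to 1.24). The RPKM ratio of the alpha to the beta subunit was 0.542 in wildtype and 1.12 in transgenic mice, a log2 difference of 1.05 (0.87 to 1.23). Of the 50-base windows of Hadhb, 19.7% also occur in other transcripts, most of them in Gm13910, against 0.341% for Hadha.

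Acaa2, the mitochondrial thiolase of medium and short chains, was at 5.29, 6.99 and 4.91 RPKM against 40.0, 40.4 and 39.2 RPKM, or 2.89-fold higher (2.34 to 3.60). Hadh, the hydroxyacyl-CoA dehydrogenase of short and medium chains, was 1.24-fold higher (1.11 to 1.39). For Hsd17b10, a dehydrogenase that also takes part in mitochondrial tRNA processing, the fold of 1.15 had an interval that included 1 (0.9502 to 1.41). Echs1, the short-chain enoyl-CoA hydratase, was at 10.7, 10.01 and 12.1 RPKM against 18.1, 17.9 and 16.8 RPKM. It was 1.499-fold lower on the relative scale, with a log2 change of -0.53, and higher by 0.64 on the library-size scale. Relative to Echs1, Hadha was at 0.460 in wildtype and 1.63 in transgenic mice, a log2 difference of 1.82 (1.63 to 2.02).

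Double bonds of unsaturated acids are moved or reduced by auxiliary enzymes, and the 4 genes measured had a median log2 change of 0.86. Decr1, the mitochondrial dienoyl-CoA reductase, was at 2.44, 2.21 and 2.95 RPKM in the wildtype and at 19.7, 17.5 and 17.1 RPKM in the transgenic columns, or 2.97-fold higher (2.44 to 3.65). Decr2, its peroxisomal counterpart, was at 13.4, 12.6 and 12.5 RPKM against 21.01, 19.7 and 18.7 RPKM, or 1.56-fold lower on the relative scale. Decr1 relative to Decr2 was at 0.197 and 0.914 RPKM per RPKM, a log2 difference of 2.21 (1.87 to 2.56). The isomerase Eci1 was 2.39-fold higher (1.86 to 3.12) and Eci2 1.62-fold higher (1.36 to 1.95). Their ratio differed by 0.56 on the log2 scale (0.10 to 1.03).

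Electrons from the dehydrogenases pass through the electron transfer flavoprotein, made of the subunits Etfa and Etfb, to Etfdh, which hands them to ubiquinone. Etfb (chr7:43444083-43457800) was at 7.42, 5.37 and 3.84 RPKM in the wildtype and at 63.9, 61.6 and 63.5 RPKM in the transgenic columns. It was 4.72-fold higher (3.69 to 6.14), from 65 wildtype reads. The exons of Etfb overlap those of Gm45233 and a microRNA over 58.2% of their bases. Without wildtype column 3, its log2 change was 1.88 and it was no longer called. Etfa was at 13.1, 12.6 and 15.3 RPKM against 39.8, 36.7 and 40.3 RPKM, or 1.18-fold higher (1.04 to 1.35). Etfdh was at 9.19, 7.58 and 9.04 RPKM against 17.3, 18.1 and 17.9 RPKM, or 1.17-fold lower on the relative scale.

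The RPKM of the subunit genes were in another ratio in each library, with the overlap of Etfb and its 65 wildtype reads as limits. Etfb relative to Etfa was at 0.405 in wildtype and 1.62 in transgenic mice, a log2 difference of 2.00 (1.59 to 2.42). Relative to Etfdh, Etfb was at 0.644 and 3.55, a log2 difference of 2.46 (2.08 to 2.86). Etfa to Etfdh differed by less, 0.46 (0.24 to 0.69).

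**Figure D4:**
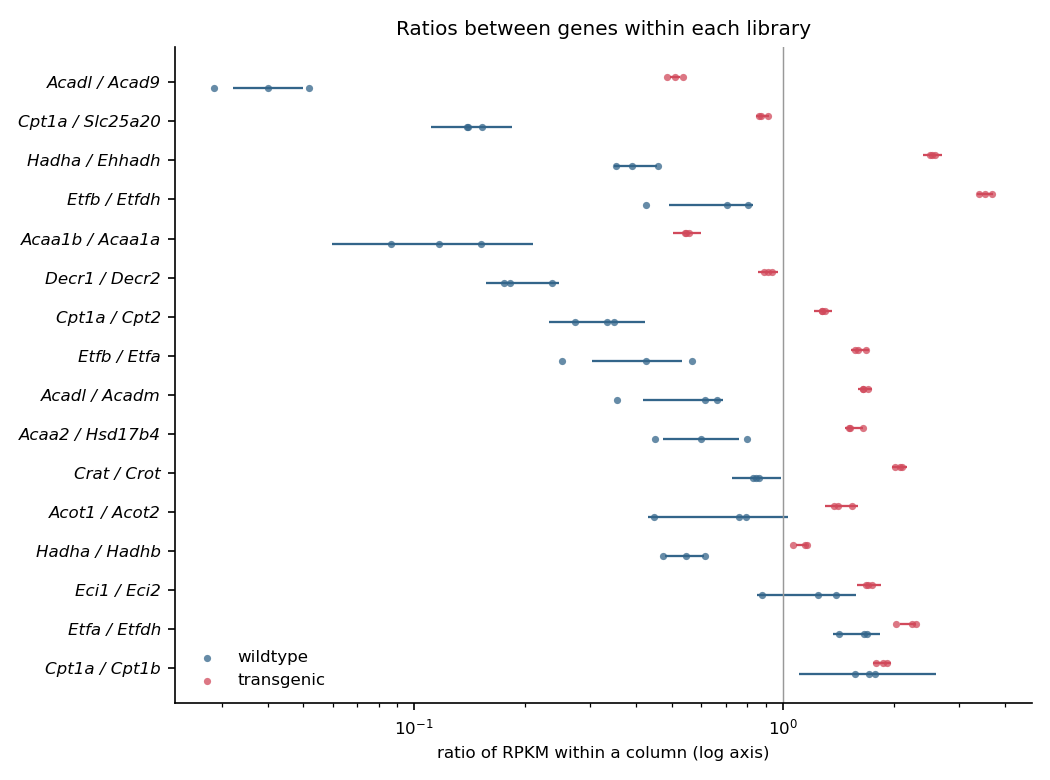
Ratio of the RPKM of 2 genes within each column (log axis) for 16 of the 19 pairs computed, with 1 point per column and the 95% counting interval of each genotype. The gene with the larger change is placed first, so the ratios lie higher in the transgenic library by construction; the log2 differences run from 0.14 (Cpt1a / Cpt1b) to 3.66 (Acadl / Acad9).

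Peroxisomal enzymes were close to the median of all genes, with a median log2 change of 0.13 over 6 genes and none called. Ehhadh, the L-bifunctional enzyme and a classical target of PPAR alpha in liver, was at 12.99, 13.4 and 11.6 RPKM in the wildtype and at 11.4, 11.4 and 10.9 RPKM in the transgenic columns. It was the only one of the 33 lower in transgenic mice on both scales, 2.71-fold lower on the relative scale, with log2 changes of -1.27 and -0.16. Hsd17b4, the D-bifunctional enzyme that handles most peroxisomal substrates, was at 8.83, 8.74 and 10.9 RPKM against 26.4, 24.4 and 25.8 RPKM, and its fold of 1.12 had an interval that included 1 (0.997 to 1.25). Acox3, an oxidase of branched chains, was 1.11-fold higher (1.01 to 1.23). Crot, which makes medium-chain carnitine esters for export, was 1.15-fold lower on the relative scale.

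The peroxisomal thiolases are 2 near copies in the mouse. Acaa1a was 1.43-fold higher (1.24 to 1.65). Acaa1b was at 0.584, 0.729 and 0.438 RPKM against 9.18, 9.53 and 9.35 RPKM, or 6.66-fold higher with a wide interval (3.78 to 12.9) from 12 wildtype reads. Of the 50-base windows of Acaa1b, 39.6% also occur in other transcripts, mostly in Acaa1a, so the split of reads between the copies is uncertain. Against the trifunctional subunit Hadha, Ehhadh was the more abundant transcript in wildtype and the less abundant in transgenic mice. The RPKM ratio of Hadha to Ehhadh was 0.399 and 2.55, a log2 difference of 2.68 (2.46 to 2.89). Acaa2 to Hsd17b4 differed by 1.37 (1.02 to 1.73), and Crat to Crot by 1.29 (1.06 to 1.52). Outside the list of peroxisomal enzymes the other 27 genes had a median log2 change of 0.66. They still include the peroxisomal Decr2 and the cytosolic Acot1, so this split is not one of peroxisome against mitochondrion.

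Acot1 and Acot2 encode the cytosolic and the mitochondrial thioesterase that release fatty acid from long-chain acyl-CoA. Acot1 was at 2.39, 1.28 and 2.39 RPKM against 13.8, 14.5 and 13.3 RPKM, or 2.85-fold higher (2.01 to 4.18) from 33 wildtype reads. Acot2 was 1.33-fold higher (1.04 to 1.73). Of the 50-base windows of Acot2, 27.7% are shared with other transcripts, mostly those of Acot1, so these values too depend on how shared reads were assigned. The RPKM ratio of Acot1 to Acot2 was 0.674 and 1.44.

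Other genes of fatty acid handling, 82 measured and 70 past the RPKM filter, had a median log2 change of -0.08, with 3 called higher and 7 called lower. The genes called higher included Phyh (2.53), the peroxisomal hydroxylase of phytanic acid, and the mitochondrial acyl-CoA synthetase Acsf2 (2.27). Phyh went from 31 wildtype reads to 2214 transgenic reads, or 1.56 to 33.1 RPKM. Those called lower included the acyl-CoA synthetases Acsl4 (-2.93) and Acsl1 (-2.79), of which Acsl1 was at 184 and 62.0 RPKM. Acacb (-2.40), which makes the malonyl-CoA that inhibits carnitine palmitoyltransferase 1, was at 81.3 and 35.1 RPKM. The ketone-using enzymes Bdh1 (-2.80) and Oxct1 (-2.24), the thioesterase Acot6 (-2.66) and Acadsb (-2.45), a dehydrogenase of branched chains from amino acids, were the rest.

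By list, 4 acyl-CoA dehydrogenases of amino acid breakdown (Acadsb, Acad8, Ivd and Gcdh) had a median of -1.43, and 4 of 4 were lower on the relative scale. On the library-size scale their median was -0.34, with 3 lower and Acad8 higher (0.58). The 16 peroxins past the filter, which build the peroxisome, had a median of -0.38 with none called. The other peroxisomal lipid enzymes had a median of -0.05, with 1 of 15 called higher. The acyl-CoA synthetases had a median of 0.29, the genes of carnitine supply and malonyl-CoA control 0.02, the ketone body enzymes -0.34 and the other thioesterases 0.25. The 12 regulators of oxidation genes past the filter had a median of 0.11 and none was called. Those named here were chosen after their values were seen. Ppara (PPAR alpha) had a log2 change of 0.12. Pdk4, a kinase that restrains glucose oxidation, had the highest of the 12, 1.15, and Esrrg the lowest, -1.24.

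Beside other metabolic genes, the 33 were above those of the respiratory chain. The 76 genes of oxidative phosphorylation had a median log2 change of -0.30, with none called, 0 higher and 14 lower past 1, and 18 higher against 58 lower by sign. The median of the 33 was higher by 0.74, and by 0.69 on the library-size scale. It was close to that of 14 genes of the tricarboxylic acid cycle (0.43), of which none was called. Fatty acid synthesis differed most, with a median of -3.24 and 14 of 17 genes called lower. The largest changes were in Olah (-8.18), the thioesterase that ends milk fatty acid chains early, Fads1 (-4.83), Elovl5 (-4.25) and Acly (-4.19), and the median of the 33 was higher by 3.68. These are descriptions of lists, with no test.

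**Figure D5:**
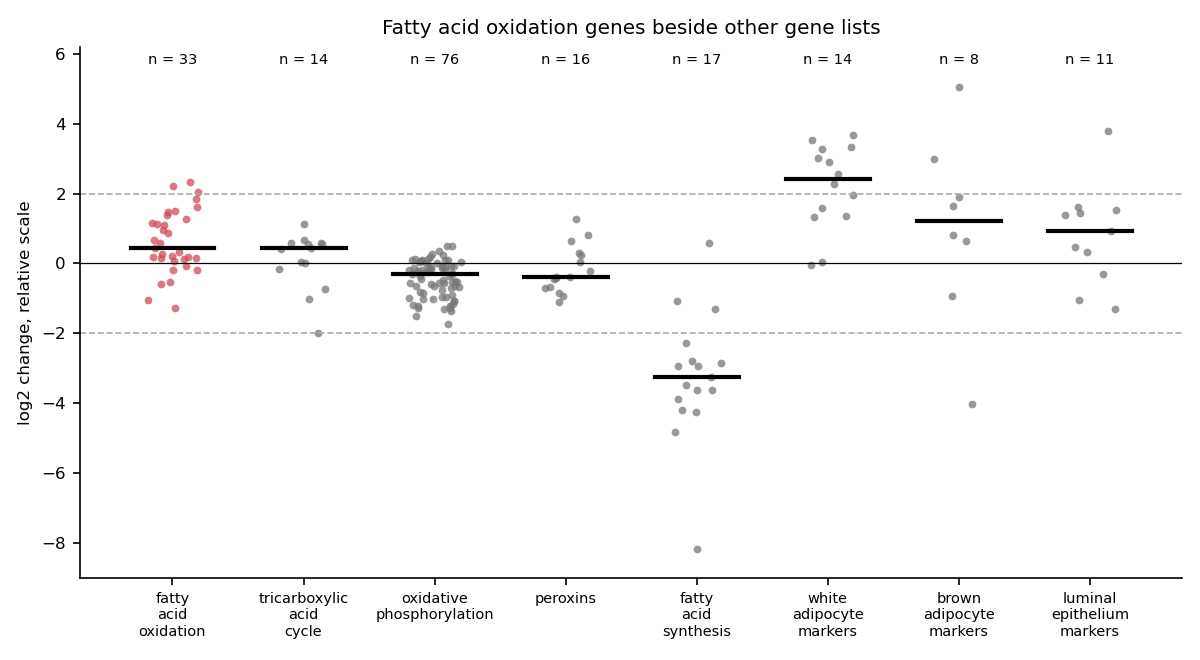
Log2 change on the relative scale (transgenic over wildtype) of each gene past the RPKM filter, with 1 point per gene, a bar at the median of each list and dashed lines at 2 and -2. The fatty acid oxidation genes (median 0.44) lie above oxidative phosphorylation (-0.30) and fatty acid synthesis (-3.24), beside the tricarboxylic acid cycle (0.43), and below the white adipocyte markers (2.42).

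Markers of other cell types also differed between the libraries, not all in the same direction. Of 14 white adipocyte markers, 13 were higher, 8 were called higher and none lower, with a median log2 change of 2.42, and their summed RPKM went from 236 to 2618. The most abundant in transgenic mice were Cfd (36.6 and 907 RPKM), Fabp4 (44.9 and 425 RPKM) and Plin4 (7.001 and 222 RPKM). The most abundant in wildtype mice, Gpd1, was at 67.9 and 159 RPKM, and Gpd1 (-0.04) and Aqp7 (0.03), named after their values were seen, had log2 changes near 0. Of the 10 brown adipocyte markers 8 passed the filter, with a median of 1.22, 6 higher, 2 called higher and 1 called lower. Their summed RPKM was 309 and 223, and 11.3 and 181 without Cidea. Ucp1, which defines the brown adipocyte, went from 1 read to 4760 reads (0.0580 to 81.97 RPKM) and Cox8b from 2.11 to 57.1 RPKM, whereas Cidea, which the lactating epithelium also expresses, went from 297 to 42.0 RPKM. Of the skeletal muscle markers 4 of 14 passed the filter, with a median of -0.80. Ckm, which defines that tissue, had 0 wildtype and 2 transgenic reads, and the most abundant were Acta1 (71.7 and 17.96 RPKM), Tnnt1 (4.59 and 1.31 RPKM) and Mylpf (0.647 and 2.75 RPKM). The part of fat in the levels of the fatty acid oxidation genes was not tested.

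Among the remaining markers, the most abundant 3 of each list in either genotype are named with their wildtype and transgenic RPKM. These RPKM are the deposited values, on which the median gene was higher by 1.06 on the log2 scale in transgenic mice. Medians and log2 changes are on the relative scale. The 8 milk proteins were all called lower, with a median log2 change of -8.99, led by Wap (35927 and 58.2 RPKM), Csn2 (31428 and 211 RPKM) and Glycam1 (25393 and 663 RPKM). The 11 luminal epithelium markers, which check the labelled tissue, had a median of 0.93, with 8 higher and 3 lower. They summed to 138 and 510 RPKM, 1.54-fold higher on the relative scale. The most abundant in transgenic mice were Krt18 (18.5 and 134 RPKM), Krt8 (13.9 and 109 RPKM) and Krt19 (18.2 and 61.6 RPKM). Ehf, the most abundant in wildtype mice (35.9 and 33.9 RPKM), had a log2 change of -1.29. Cldn7 (-1.04) and Epcam (-0.29) were also lower, and these 3 were named after their values were seen. The 8 basal epithelium markers had a median of 0.37, with 5 higher and 3 lower. They were led by Acta2 (77.7 and 253 RPKM), Myh11 (25.9 and 77.3 RPKM) and Krt5 (6.32 and 40.7 RPKM). Those lower were Krt17 (-0.18), Oxtr (-0.17) and Krt14 (-0.03). The 8 endothelial markers had a median of 0.54, with 7 higher and 1 lower. They were led by Cdh5 (12.9 and 46.5 RPKM), Pecam1 (9.56 and 39.7 RPKM) and Kdr (9.56 and 15.9 RPKM). Kdr was the 1 lower on the relative scale, with a log2 change of -0.48. For the 8 macrophage markers, 7 higher and 1 lower, the median was 1.31, with Lyz2 (7.31 and 189 RPKM), Csf1r (3.203 and 31.2 RPKM) and Cd68 (2.12 and 28.6 RPKM). For the 8 fibroblast markers it was 2.16, with Col3a1 (21.7 and 410.2 RPKM), Col1a1 (20.1 and 402 RPKM) and Col1a2 (8.64 and 172 RPKM). For the 10 lymphocyte markers it was 3.01, with Cd3e (1.196 and 72.5 RPKM), Cd79a (0.196 and 68.7 RPKM) and Lck (0.666 and 35.6 RPKM). The part of these cell types in the result was not tested either.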

How the data were processed

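RNA of mammary tissue slides was depleted of ribosomal RNA and sequenced as single reads. The authors aligned them to GRCm38/mm10 with TopHat2 (2.0.7), a version also given in the submitters' processing notes. They deposited RPKM per gene, from SAMMate with Ensembl models (release 82), scaled to library size. Whether counting used strand is not given in the sources used here. The deposited table also holds the authors' means, log2 fold changes and fold ratios, which were not used. All 6 columns of per-sample RPKM were used.

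From these values, depth and reads were recovered from the steps of RPKM (tolerance 1e-05 reads), at the exonic length of GENCODE M21 for 8699 genes and at a length found by search for 9609. A further 3642 genes were at 0. Since the columns of a genotype behaved as 1 library, limma was not used and genes were called by size, a log2 change past 2 with 1 RPKM added. Genes averaging under 2 RPKM in both genotypes were left out. Size factors by the median of ratios follow the DESeq2 analysis of the study, which was not repeated. Fold intervals are Clopper-Pearson intervals of the split of reads, and intervals of ratio differences are exact conditional intervals of the odds ratio. Python 3.11.15, numpy 2.4.6, pandas 2.3.3 and scipy 1.17.1 were used.

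Every one of the 33 genes is named. Of other lists, genes past the threshold are named, at most 4 per list by size, and of marker lists the 3 most abundant in either genotype, with Ckm as a defining marker and the exceptions named in the text; 1 gene past the threshold is not reported here. The genes and lists were chosen with earlier results of these data known. Alternatives were other scalings, pseudocounts, filters and thresholds, genes with few shared bases, and leaving out each column. A gene's exonic overlap and the 50-base windows it shares with other transcripts were read from GENCODE M21.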

Additional observations from a re-analysis of the deposited data

How the results depend on the processing

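The count of fatty acid oxidation genes past the threshold, 3, was 14 with library-size scaling, 5 when scaled to reads outside milk proteins, 5 with a pseudocount of 0.1 RPKM, 0 with one of 5 RPKM and 12 with a log2 threshold of 1. Leaving out a column gave 2 to 3, with Etfb lost without wildtype column 3. None was called lower in any setting at the log2 threshold of 2. Their median change, 0.44, was 1.60 with library-size scaling, 0.86 outside milk proteins, 0.28 over the 29 genes with under 10% shared exonic bases and 0.43 to 0.46 without a column. Its difference to oxidative phosphorylation, 0.74, stayed between 0.55 and 0.82. Over all genes, 366 were called higher and 410 lower, against 2106 and 161 with library-size scaling, 712 and 290 outside milk proteins, 1143 and 648 with a pseudocount of 0.1 RPKM, and 54 and 180 with 5 RPKM. Beyond what the scaling and pseudocount change by construction, the cause was not tested. No paired analysis was possible because the columns of a genotype behaved as 1 library and the result comes from no test. The depth of the wildtype library, with fewer than 100 reads for 10 of the 33 genes, limits precision.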
